A study of Mus musculus with 6 samples.

Results

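Genes of gluconeogenesis were described in CMT93 spheroids with and without the saturated fatty acid palmitate; CMT93 is a mouse cell line from a colorectal carcinoma. They were Fbp1, Fbp2, Pck2, Pcx and G6pc3, taken by symbol from a table of 23399 genes, and 4 of the 5 are reported; Fbp1 was not analysed here. The 5 were listed with results of this comparison already known, so their levels and differences are given as descriptions, without p-values. All 6 libraries came from wild-type CMT93 cells of 1 line, kept in serum-containing medium and then on soft agar with 0.25% Matrigel. The vehicle group (3 libraries) received ethanol and bovine serum albumin, and the palmitate group (3 libraries) received sodium palmitate, dissolved in ethanol and bound to the same albumin, at 200 µM. Exposure ran for 1 week in monolayer and for 5 days as spheroids, and messenger RNA was then selected by its poly(A) tail and counted per gene. The comparison asks which messages differ between tumour spheroids kept with and without an excess of this fatty acid.

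Gluconeogenesis rebuilds glucose from pyruvate, lactate, amino acids and glycerol. It reverses glycolysis through shared enzymes, and goes around the irreversible glycolytic steps with enzymes of its own: pyruvate carboxylase and phosphoenolpyruvate carboxykinase, then fructose bisphosphatase, then glucose-6-phosphatase. Liver and kidney run the full path and release glucose. Other cells can use parts of it, to refill the citrate cycle or to feed glycerol, serine and pentose phosphate synthesis. Pcx makes oxaloacetate from pyruvate in mitochondria with biotin as cofactor, Pck2 is the mitochondrial carboxykinase, Fbp1 and Fbp2 are the liver-type and muscle-type fructose bisphosphatases, and G6pc3 is the glucose-6-phosphatase found in most tissues.

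Sequence before the transcription start is shown for the 3 genes whose levels did not overlap between the groups. Each run is the 250 bases before the RefSeq start, 5′ to 3′ on the gene's strand, in build GRCm38.p6, whereas the authors counted on mm39. All 4 reported genes had such a window, and Pcx had 2 starts. Capitals mark the E-box CACGTG, a site read by basic helix-loop-helix factors, and the AP-1 site TGAGTCA, read by FOS and JUN proteins. The windows are chr13:62858401-62858650 on the minus strand for Fbp2, chr11:102189449-102189698 on the plus strand for G6pc3, and chr19:4510222-4510471 on the plus strand for the upstream start of Pcx.
Fbp2: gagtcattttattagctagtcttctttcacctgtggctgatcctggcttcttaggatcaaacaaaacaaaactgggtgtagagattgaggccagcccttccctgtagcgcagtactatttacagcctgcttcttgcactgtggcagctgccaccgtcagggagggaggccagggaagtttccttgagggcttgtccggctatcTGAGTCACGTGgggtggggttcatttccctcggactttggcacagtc
G6pc3: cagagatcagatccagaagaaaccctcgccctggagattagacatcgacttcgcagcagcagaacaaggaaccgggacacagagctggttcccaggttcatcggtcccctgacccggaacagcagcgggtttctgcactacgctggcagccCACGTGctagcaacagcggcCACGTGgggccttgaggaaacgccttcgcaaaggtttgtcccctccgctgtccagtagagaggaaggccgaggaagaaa
Pcx: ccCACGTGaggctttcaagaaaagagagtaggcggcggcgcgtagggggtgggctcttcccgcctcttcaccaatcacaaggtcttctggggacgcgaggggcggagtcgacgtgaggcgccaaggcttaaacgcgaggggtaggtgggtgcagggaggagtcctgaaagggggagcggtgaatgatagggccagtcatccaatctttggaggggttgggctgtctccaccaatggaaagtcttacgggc
In Fbp2 the AP-1 site spans 47 to 41 bases before the start, and the E-box 42 to 37, so the sites share bases and read TGAGTCACGTG together. That joint run, looked for after the Fbp2 window had been read, was present in 10 of 32851 windows of the same length (0.0304%), on either strand. It was copied from the Fbp2 window and is longer than either site, so its low share is a description and no test. G6pc3 had an E-box at 99 to 94 and another at 79 to 74 bases before the start, and Pcx had 1 at 248 to 243. An E-box stood in 6.02% of all windows and an AP-1 site in 4.46%. An E-box was thus in the window of 2 genes that were higher with palmitate and of 1 that was lower. Pck2 and the second start of Pcx held neither. The letters CCAAT, found in 33.8% of windows, occurred in Pck2 and in the upstream window of Pcx. The cAMP element TGACGTCA (1.55% of windows), the nuclear receptor repeat DR1, a pair of AGGTCA half-sites with 1 base between them (0.0335%), the ATF4 element TGATGNAAT (0.816%) and the FOXO site GTAAACA (3.17%) were in none of the 5 windows.

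Total counts ran from 18.9 to 21.9 M with vehicle and from 22.5 to 22.9 M with palmitate, and the groups did not overlap in depth. Sample labels number the libraries without saying whether they were separate cultures. The p-values therefore reflect library-to-library spread alone, and that spread may be technical. Of 14987 genes tested, 52.8% passed an adjusted p of 0.05 with edgeR's quasi-likelihood test, 27.4% higher and 25.4% lower with palmitate. Epithelial markers matched the label for the simple keratins and adhesion genes, with Cdh1 at 2158 CPM (counts scaled to a library of 1 M) with vehicle, Krt8 at 1702 CPM and Epcam at 673 CPM. Intestinal markers ranged widely with vehicle, from Lgals4 at 65.2 CPM and Vil1 at 15.7 CPM to Cdx2 at 1.72 CPM and Krt20 at 0.146 CPM. Of 12 listed epithelial and intestinal markers, 10 were in the table and 9 were tested by edgeR. With palmitate 3 were higher and 3 lower, beside the shares of all genes given above. Krt8 was lower with palmitate, at 1438 CPM, and Cdx2 was higher, at 2.46 CPM. Hepatocyte markers summed to between 1.15 and 2.42 CPM in every library, over 11 of 14 listed genes.

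Fbp2 message was about 6 times as abundant with palmitate as with vehicle. Fbp2 (ENSMUSG00000021456.9) removes a phosphate from fructose 1,6-bisphosphate, the step that opposes phosphofructokinase. The vehicle libraries held 6.0, 5.69 and 6.14 CPM, on counts of 114, 125 and 133. The palmitate libraries held 34.8, 36.0 and 35.6 CPM, on counts of 778, 812 and 808. The groups were far apart, and the libraries of each group lay close together. Group means were 5.94 ± 0.232 CPM with vehicle and 35.5 ± 0.617 CPM with palmitate (SD, n = 3 libraries each), a 5.97-fold difference. The fitted log2 fold change was 2.58 (SE 0.0665), which ranked 3 of 13223 genes with at least 1 CPM on average. The median gene tested had a log2 fold change of 0.00, and the median size of a change in either direction was 0.15. In bulk RNA, a gene used by more cells and a gene with more message per cell cannot be told apart.

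Fbp2 is the form of skeletal muscle, so muscle markers were read beside it. Of 14 listed markers 8 were in the table, and none exceeded a group mean of 2.87 CPM, the value of the intermediate filament gene Des with vehicle. Their sum was 6.41 to 8.79 CPM in the vehicle libraries and 5.01 to 5.90 CPM in the palmitate libraries, lower where Fbp2 was higher. Of 4 tested by edgeR, Des and the troponin gene Tnni2 were lower. The others were not called: Mylpf averaged 0.536 CPM with vehicle and 0.709 CPM with palmitate, and Pygm 2.40 and 2.22 CPM. Among those with too few reads for the test, skeletal actin (Acta1) averaged 0.285 CPM with vehicle and 0.163 CPM with palmitate. Its counts were 4, 4 and 10 against 6, 1 and 4, so the groups overlapped. Tnnt3 (0.301 and 0.267 CPM) and Atp2a1 (0.0680 and 0.0295 CPM) were also lower on average, and Casq1 (0.0503 and 0.104 CPM) was higher. Of a list for kidney tubule, another tissue of gluconeogenesis, 4 of 10 genes were in the table. The endocytic receptor gene Lrp2 rose from 86.2 to 173 CPM, whereas Cubn had 3.55 and 3.58 CPM, and Slc34a1 and Slc12a1 averaged under 0.4 CPM in each group. The part of Lrp2-expressing cells in the Fbp2 result was not tested. Sequence shared with other genes was looked for: of 1305 runs of 50 bases in the longest coding Fbp2 transcript, 0 occurred in any transcript of another gene, Fbp1 included (GENCODE M21).

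**Figure D1:**
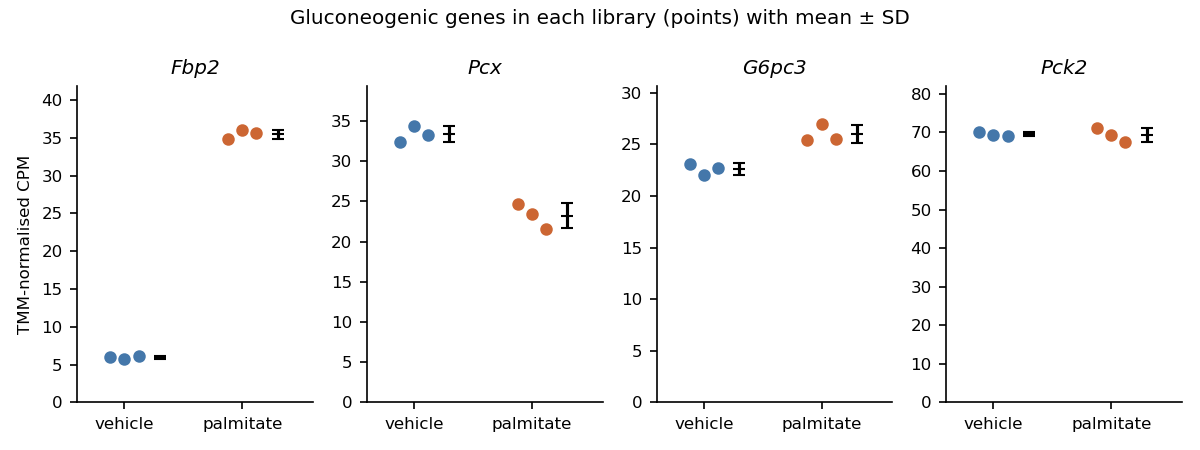
TMM-normalised CPM of Fbp2, Pcx, G6pc3 and Pck2 in each library (points, vehicle in blue and palmitate in orange), with the mean and SD of 3 libraries in black and each axis starting at 0. Fbp2 stands near 6 CPM with vehicle and 35.5 CPM with palmitate, Pcx is lower and G6pc3 slightly higher with palmitate, and the Pck2 groups overlap.

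Pcx message was lower with palmitate. Pcx (ENSMUSG00000024892.18), the entry of pyruvate into the pathway and a main supplier of oxaloacetate to the citrate cycle, had 32.4, 34.4 and 33.2 CPM in the vehicle libraries. It had 24.7, 23.4 and 21.6 CPM in the palmitate libraries. The highest palmitate library was below the lowest vehicle library. Means were 33.3 ± 1.01 and 23.2 ± 1.52 CPM (SD, n = 3 libraries each), a 1.44-fold difference, with a log2 fold change of -0.52 (SE 0.0501). This placed Pcx at 955 from the lowest of the 13223 genes. Gene-level counts do not separate the 2 starts of Pcx. Mpc2, a subunit of the mitochondrial carrier that brings in its substrate, was not called (log2 fold change 0.03).

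Pck2 message did not differ beyond its spread. Pck2 (ENSMUSG00000040618.8) turns mitochondrial oxaloacetate into phosphoenolpyruvate and was, by CPM, the most read of the 4 genes. It had 70.1, 69.4 and 69.1 CPM in the vehicle libraries and 71.1, 69.3 and 67.5 CPM in the palmitate libraries. The palmitate libraries lay on both sides of the vehicle libraries. The log2 fold change was 0.00 (SE 0.0327), from 69.5 ± 0.564 to 69.3 ± 1.82 CPM (SD, n = 3 libraries each). Pck2 is a known target of the stress factor ATF4, whose own message (Atf4) rose from 239 ± 5.49 to 279 ± 7.82 CPM (SD, n = 3 libraries each), a log2 fold change of 0.23 (SE 0.0204; edgeR adjusted p = 1.59e-16). Of the 4 genes, only Pck2 had runs of 50 bases shared with other genes, 1.86% of its longest coding transcript. Its exons overlapped 53 bases of Gm10876 on the opposite strand.

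G6pc3 message was slightly higher with palmitate. G6pc3 (ENSMUSG00000034793.16) removes the last phosphate to give free glucose, and also clears a phosphorylated sugar analogue that is toxic to neutrophils. It had 23.1, 22.0 and 22.8 CPM in the vehicle libraries and 25.5, 27.0 and 25.5 CPM in the palmitate libraries. The groups did not overlap, but the nearest libraries were close. Means were 22.6 ± 0.561 and 26.0 ± 0.866 CPM (SD, n = 3 libraries each), a 1.15-fold difference with a log2 fold change of 0.20 (SE 0.0522). In all, 3 of the 4 genes had groups that did not overlap, and so did 57.8% of all genes tested. Slc37a4, which carries glucose 6-phosphate to this enzyme in the endoplasmic reticulum, went from 15.0 ± 0.669 to 16.0 ± 0.532 CPM (SD, n = 3 libraries each) and was not called (log2 fold change 0.09; SE 0.0647; edgeR adjusted p = 0.221). Pck1, G6pc and G6pc2, the other genes of the irreversible steps, were not analysed here.

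Per kilobase of annotated exon, Fbp2 went from the lowest of the 4 genes to the highest, a top place that depends on the length taken for Pck2. With vehicle the order was G6pc3 (10.2 ± 0.252 CPM per kb), Pck2 (8.91 ± 0.0722), Pcx (7.01 ± 0.212) and Fbp2 (4.05 ± 0.158; SD, n = 3 libraries each). With palmitate it was Fbp2 (24.1 ± 0.420 CPM per kb), G6pc3 (11.7 ± 0.389), Pck2 (8.88 ± 0.233) and Pcx (4.89 ± 0.320). Neighbours in either order differed by more than their SDs on this scale. The lengths came from GENCODE M21, and with the longest coding transcript in place of all exons, Pck2 (15.0 CPM per kb) and G6pc3 (14.4) changed places with vehicle. Fbp2 was the lowest with vehicle and the highest with palmitate by either length. The order rests on these annotated lengths, which were 7806 and 4625 bases for Pck2 and 1469 and 1354 bases for Fbp2. By CPM alone, Pck2 stayed above Fbp2 with palmitate (69.3 against 35.5 CPM). A shorter Pck2 transcript would raise its level per kilobase, and a short enough one would place it above Fbp2 with palmitate. None was tried.

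**Figure D2:**
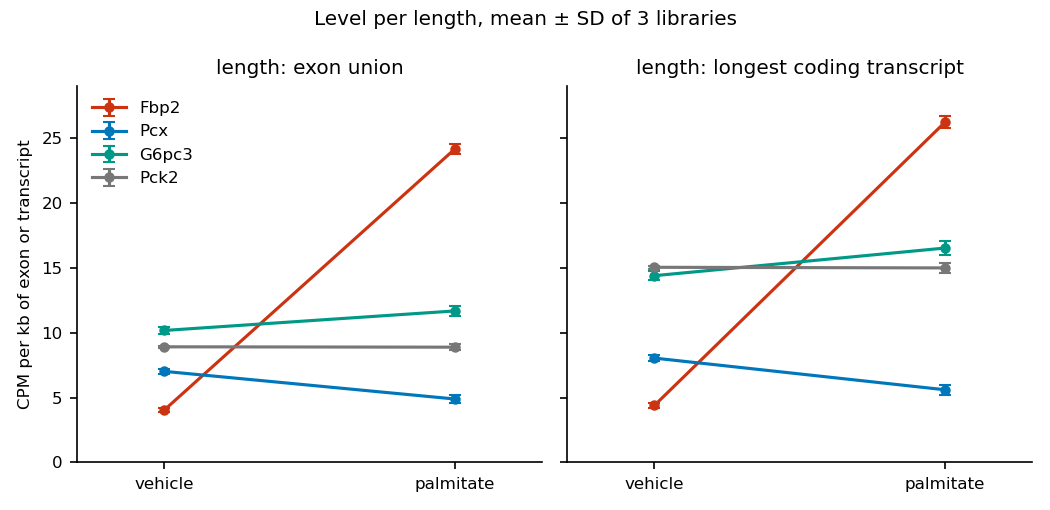
CPM per kilobase for the 4 genes in both groups (points are means, bars are SDs of 3 libraries), with length as the union of exons on the left and the longest coding transcript on the right. The Fbp2 line starts lowest, at 4.05 and 4.39, and ends highest, at 24.1 and 26.2, while Pcx goes from 7.01 to 4.89 by exons and the G6pc3 and Pck2 lines change least.

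Messages for phosphofructokinase, the enzyme that runs against fructose bisphosphatase, summed to 52.8, 51.6 and 51.5 CPM per kb in the vehicle libraries and 55.5, 54.3 and 54.8 in the palmitate libraries. Of its isoforms, Pfkp rose from 61.8 ± 1.2 to 86.2 ± 1.49 CPM (SD, n = 3 libraries each), a log2 fold change of 0.48 (SE 0.0320; edgeR adjusted p = 1.27e-23). Pfkl, the liver isoform, rose by 0.17 on the log2 scale, and Pfkm, the muscle isoform, fell by 0.16. Fbp2 per kilobase came to 7.75%, 7.50% and 8.12% of the summed phosphofructokinase messages per kilobase in the vehicle libraries. In the palmitate libraries it came to 42.7%, 45.1% and 44.2%. With the longest coding transcript as length the group means were 5.08% and 27.4%. The ratio was higher in every palmitate library than in every vehicle library by either length, and it carries the Fbp2 difference described above.

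Among the opposing kinases as a list, 3 of 7 tested genes were higher, 2 lower and 2 not called (71.4% called, against 52.8% of all genes tested), with a median log2 fold change of 0.04. Hk1, the common hexokinase, fell by 0.13 on the log2 scale, and Hk2 was not called (0.04). Pyruvate kinase Pkm, which opposes the Pcx and Pck2 steps, rose from 1721 ± 17.3 to 1847 ± 16.8 CPM (SD, n = 3 libraries each), a log2 fold change of 0.10 (SE 0.0142; edgeR adjusted p = 2.68e-09), and the liver gene Pklr had 2.17 and 2.19 CPM and was not called. Fructose 2,6-bisphosphate blocks fructose bisphosphatase and switches phosphofructokinase on. Of 5 genes that make or remove it, 1 was higher, 0 were lower by edgeR (0 also at an unadjusted p of 0.05) and 4 were not called (20% called), with a median of 0.07. Pfkfb3, which mainly makes it, rose from 13.2 ± 0.0398 to 18.4 ± 1.04 CPM (SD, n = 3 libraries each), a log2 fold change of 0.48 (SE 0.0648; edgeR adjusted p = 6.25e-10). The log2 fold changes of Tigar (0.07), Pfkfb1 (0.16), Pfkfb2 (0.02) and Pfkfb4 (0.00) did not pass.

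Enzymes shared by both directions were nearly all higher. Of 10 tested, 9 were higher (90% called, against 52.8% of all genes tested), 0 lower by edgeR (0 also at an unadjusted p of 0.05) and 1 not called, with a median log2 fold change of 0.20. Aldoa, which joins the triose phosphates into the substrate of Fbp2, rose from 763 ± 3.36 to 885 ± 13.1 CPM (SD, n = 3 libraries each), a log2 fold change of 0.22 (SE 0.0155; edgeR adjusted p = 9.79e-22). Gapdh (0.20) and Tpi1 (0.20) rose to a like extent, and Aldoc (-0.04) was not called. Of the enolases, the neuronal form Eno2 rose from 3.31 ± 0.446 to 8.43 ± 0.411 CPM (SD, n = 3 libraries each), a log2 fold change of 1.35 (SE 0.113; edgeR adjusted p = 2.18e-18). Eno3, the muscle enolase, rose by 0.54 on the log2 scale, from 21.2 to 30.9 CPM; it was singled out after its values were seen.

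Genes that bring carbon to the pathway moved in both directions: 10 of 21 tested were higher, 5 lower and 6 not called (71.4% called, against 52.8% of all genes tested, 27.4% higher and 25.4% lower), with a median log2 fold change of 0.04. The called alanine aminotransferases parted. The mitochondrial Gpt2 rose from 35.6 ± 0.750 to 51.7 ± 2.11 CPM (SD, n = 3 libraries each), a log2 fold change of 0.54 (SE 0.0410; edgeR adjusted p = 1.36e-20), while the cytosolic Gpt fell by 0.37 on the log2 scale. Mdh1 (0.34), Got2 (0.29) and Ldha (0.26), which serve the malate-aspartate exchange and lactate, rose. Of the aspartate-glutamate carriers of that exchange, Slc25a13 fell from 102 to 85.1 CPM (-0.27) and Slc25a12 rose from 25.9 to 29.7 CPM (0.20). Slc25a1 (0.04) was not called. The 3 genes that take in glycerol carbon and were called, Gk (-0.27), Gpd1l (-0.39) and Gpd2 (-0.11), all fell, and the cytosolic dehydrogenase Gpd1 stood near 2 CPM in both groups. These glycerol genes, Slc25a13, Slc25a12 and Gpt were singled out after their values were seen. Over all pathway lists, regulators included, 61 of 66 tested genes had a log2 fold change smaller than 0.5 in either direction, and 1 reached 1, Eno2. Fbp2, at 2.58, lay beyond all 66.

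**Figure D3:**
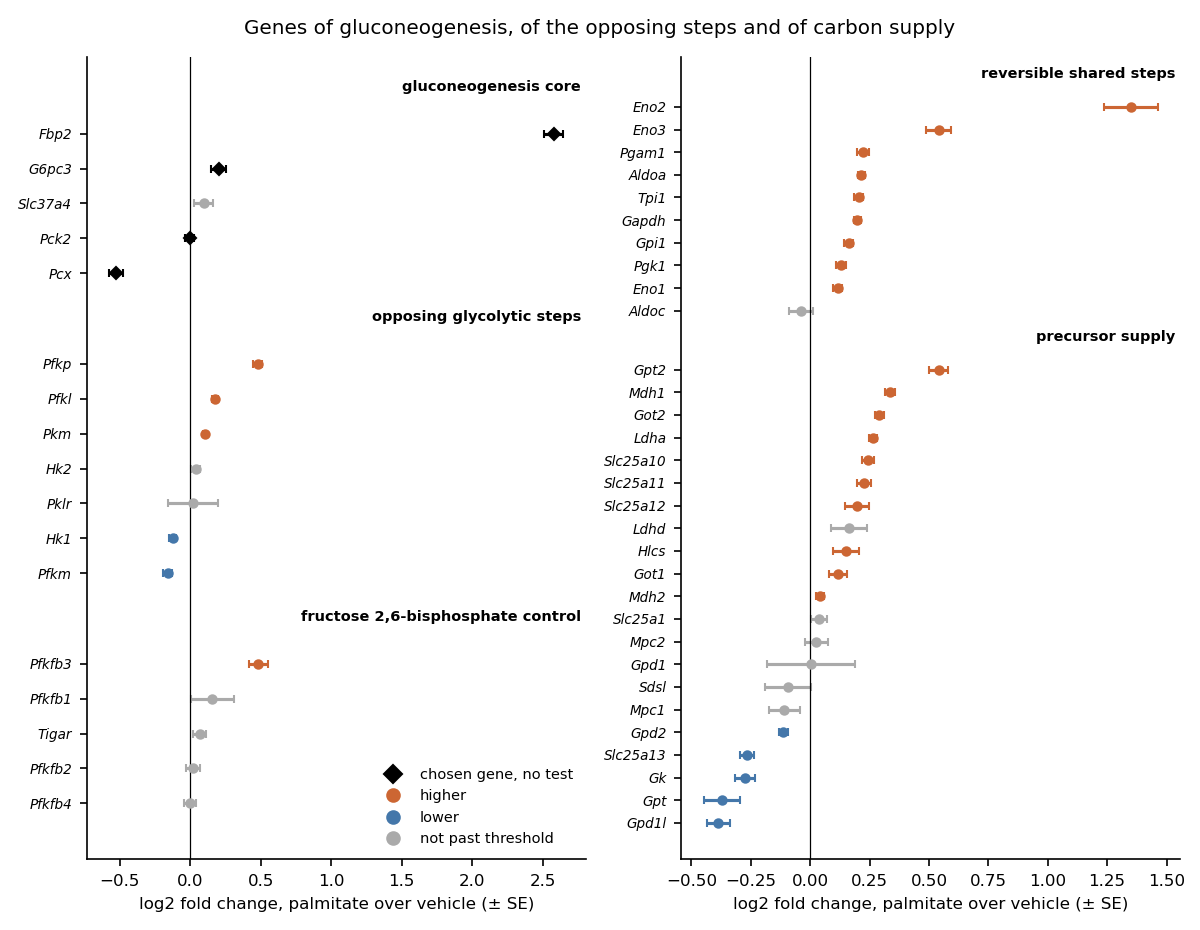
Log2 fold change of palmitate over vehicle with its SE (x axis, linear; the 2 panels have different ranges) for tested genes of 5 pathway groups (rows). Black diamonds are the 4 described genes, orange and blue points passed the edgeR threshold as higher or lower and grey points did not; Fbp2 at 2.58 lies far to the right of the other rows.

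Regulators of gluconeogenic genes in liver were mixed, with 8 of 22 tested higher, 6 lower and 8 not called and a median log2 fold change of -0.02. The share called, 63.6%, was near the 52.8% of all genes tested. Ppargc1a, a coactivator that fasting switches on in liver, rose from 22.7 ± 1.37 to 33.1 ± 0.750 CPM (SD, n = 3 libraries each), a log2 fold change of 0.55 (SE 0.0502; edgeR adjusted p = 2.34e-16). Its partner Hnf4a rose from 38.8 ± 1.02 to 50.1 ± 0.568 CPM. Kat2a, an acetyltransferase that restrains the protein of Ppargc1a, also rose (0.36). Sik1, a kinase that holds back the cAMP coactivator encoded by Crtc2, fell from 163 ± 1.32 to 110 ± 3.05 CPM (SD, n = 3 libraries each), a log2 fold change of -0.56 (SE 0.0245; edgeR adjusted p = 2.11e-35), and Crtc2 itself (-0.06) was not called. Foxo1, the insulin-restrained activator, fell by 0.30 on the log2 scale. Of the fatty acid receptors, Ppard fell by 0.11 and Ppara was low, at 0.99 ± 0.421 CPM with vehicle and 0.904 ± 0.264 CPM with palmitate, and not called. Pparg, added after its values were seen, rose from 17.5 to 19.5 CPM (log2 fold change 0.15; edgeR adjusted p = 0.0231). That call did not hold with DESeq2 (adjusted p = 0.158), with libraries thinned to equal depth (edgeR adjusted p = 0.104), or without vehicle replicate 2 (0.0532), vehicle replicate 3 (0.0675) or palmitate replicate 2 (0.102). Cebpb (0.06) and Irs2 (-0.03) were not called. The glucocorticoid receptor gene Nr3c1 fell by 0.10 on the log2 scale, a call that did not hold with DESeq2 (adjusted p = 0.125), without vehicle replicate 3 (adjusted p = 0.0557, edgeR) and without palmitate replicate 3 (adjusted p = 0.308, edgeR).

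**Figure D4:**
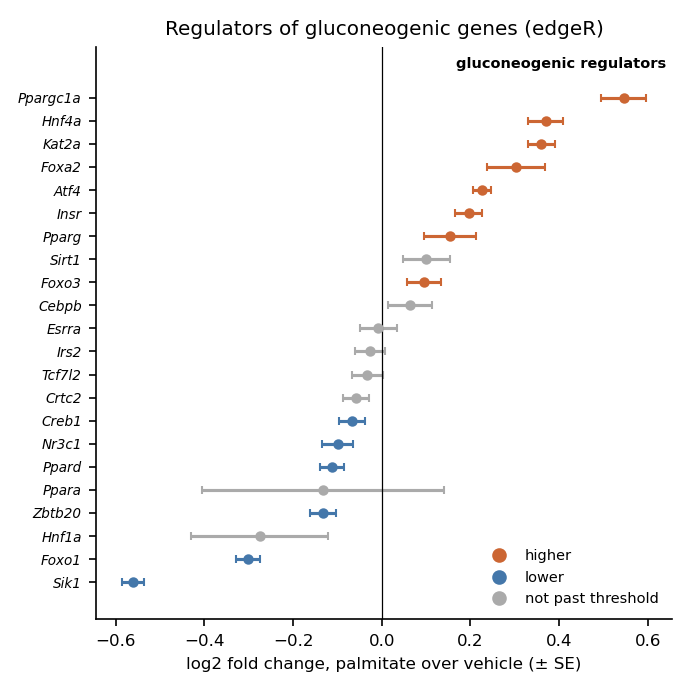
Log2 fold change of palmitate over vehicle with its SE (x axis, linear) for the 22 tested regulators (rows), coloured by the edgeR call. Ppargc1a at 0.55 and Sik1 at -0.56 are the outermost points.

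Fbp2 was compared with every other gene that averaged at least 1 CPM over the 6 libraries. The measure was the root mean square distance between log2 CPM profiles over those libraries, each profile centred on its own mean. The nearest of 13222 genes was Acot1, a cytosolic acyl-CoA thioesterase (distance 0.19), with 0.843, 0.955 and 0.969 CPM in the vehicle libraries and 7.61, 6.92 and 7.71 CPM in the palmitate libraries. Its close relatives can share reads, so its values are uncertain. Next came Tdrkh, a Tudor domain gene of the piRNA pathway (0.22), the integrin gene Itga7 (0.23) and Artn, a ligand of the GDNF family (0.23). Acot1 and Itga7 averaged 0.922 and 0.728 CPM with vehicle, so they passed the 1 CPM filter only through the palmitate libraries. Distances are set mostly by the step between the groups and are a description of these 6 libraries.

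In the authors' deposited gene set table, Fbp2 was in the leading edge of 5 of 93 metabolic sets and G6pc3 in that of 1. The G6pc3 set, starch and sucrose metabolism, had a q-value of 0.847 in the authors' deposited table. Pcx and Pck2 were in none of the leading edges of the authors' deposited table. For glycolysis and gluconeogenesis, a set of 54 genes, the authors' deposited table gives a normalised enrichment score of 1.49 and a q-value of 0.212, with Fbp2 first of 19 leading genes. For carbon metabolism (108 genes) the authors' deposited table gives a score of 1.80 and a q-value of 0.00462, again with Fbp2 listed first. For fructose and mannose metabolism (34 genes) it gives, in the authors' deposited table, a score of 1.73 and a q-value of 0.0416. The remaining sets with Fbp2, the pentose phosphate pathway and metabolic pathways, had q-values of 0.0930 and 0.118 in the authors' deposited table. The authors' deposited gene table gives log2 fold changes of 2.58 for Fbp2, -0.52 for Pcx, 0.20 for G6pc3 and 0.00 for Pck2.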

How the data were processed

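Gene counts of 6 polyadenylated RNA libraries from a stranded kit were used. Per the submitters' processing notes, the authors' tools were STAR 2.6.1 and HTSeq (version not given) on build mm39, after FastQC 0.11.8, with DESeq2 1.34.0 for the comparison. Use of strand in counting is not stated there. The deposited raw counts are whole numbers per gene. The authors' deposited gene table holds log2 fold changes, p-values and q-values and a signed −log10 p score; the deposited gene set table holds enrichment scores, p-values and q-values, per the column description. Raw counts were fitted over all genes with edgeR 4.0.16 in R 4.3.3 (TMM scaling, filterByExpr with a minimum count of 10, robust quasi-likelihood test, two-sided, Benjamini-Hochberg, threshold 0.05), first tried on simulated data. CPM is TMM-normalised; an SE is the log2 fold change over the root of F.

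The members and lists were chosen with earlier results of these data known. Named genes were the core genes, up to 4 called genes of smallest p, the largest called change and up to 2 uncalled genes of highest CPM per list, all opposing kinases and fructose 2,6-bisphosphate genes, 7 fixed regulators, and the 4 profiles nearest to Fbp2 (prior count 2). Lengths and shared runs came from GENCODE M21 (GRCm38) by identifier. Libraries of a group differed by 1.2 to 1.38 times counting variance, so none was a copy. Figures used matplotlib 3.10.9. Some genes were not analysed here, and 1 gene of the lists is not reported.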

Additional observations from a re-analysis of the deposited data

How the results depend on the processing

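Over 11 alternatives (DESeq2 1.42.0, its size factors within edgeR, testing every gene without a count minimum, the replicate number as a block, thinning to the shallowest library, and leaving out each library), the log2 fold change stayed within 2.54 to 2.6 for Fbp2, -0.57 to -0.47 for Pcx and 0.17 to 0.22 for G6pc3. For Pck2 it ranged from -0.03 to 0.02. With all libraries thinned to equal depth, Fbp2 had 2.57. Genes called over the whole table numbered 7915, 5692 with DESeq2 and 7260 to 7406 when a library was left out. Counts called in each list stayed within 1.5 times: 7 to 10 higher for carbon supply, and 6 to 8 higher and 4 to 7 lower for regulators. Of 51 genes run one by one (those of the naming rule, the 4 nearest profiles and genes singled out later), 2 had a call that changed, Nr3c1 and Pparg. Slc25a12 was not among the 51. The replicate block called 7933 genes, gave 2.58 for Fbp2 and changed no call among those 51 genes. Deviations of same-numbered libraries correlated at -0.00176, 0.00665 and 0.0212, and those of differently numbered libraries reached 0.0142. With 3 libraries per group and a spread near counting variance, these correlations cannot decide whether the numbers pair the samples. With the longest coding transcript as length, chosen after seeing the data, Fbp2 came to 5.08% of phosphofructokinase per kilobase with vehicle (7.79% by exons) and 27.4% with palmitate (44.0% by exons), since that length shortens the phosphofructokinase genes more. The planned ratio of Fbp2 to Fbp1 was not run. Depth limits Ppara, near 1 CPM, more than the 4 genes described.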

Other observations

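Igfbp1, an insulin-repressed target of FOXO1 in liver that was on the list of regulators, had too few reads for the test. It had counts of 6, 9 and 5 in the vehicle libraries and 0, 1 and 0 in the palmitate libraries. It was singled out after its values were seen, and no fold is given at this depth.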
